A study of Mus musculus with 6 samples.

Results

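The tissue chemokine receptors described here are 9 genes, namely Ccr2, Ccr4, Ccr6, Ccr8, Ccr9, Ccr10, Cxcr3, Cxcr4 and Cxcr6, of the 49315 genes in the count table. They were chosen by name as receptors linked to the placement of T cells in tissues, and their Ensembl identifiers were matched to gene symbols of the GENCODE M21 annotation. The data are bulk RNA-seq libraries of sorted regulatory T cells, or Tregs, from skin (3 libraries) and from skin-draining lymph nodes (SDLN; axillary, brachial and inguinal, 3 libraries) of untreated Foxp3-GFP reporter mice at 9 days of age. Live CD45+ CD4+ cells carrying the Foxp3-EGFP reporter were sorted, and each library holds the pooled cells of 3 biological replicates. The count table letters its libraries, and nothing ties a letter to a numbered sample, so libraries are named by tissue and letter. The sources do not say whether a shared letter marks the same animals, and it was not taken as a pair. Where a sentence gives 3 values for a tissue, they stand in the order of libraries A, B and C.

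Chemokine receptors are G protein-coupled receptors on the surface of leukocytes. They bind chemokines, small secreted proteins laid down by tissue cells and by other leukocytes, and direct migration or retention through inhibitory G proteins, Rac and integrins. In Tregs, Ccr4, Ccr8 and Ccr10 are known from skin and other barrier tissues, Ccr2, Ccr6, Cxcr3 and Cxcr6 from inflamed or peripheral tissue, Ccr9 from the gut and Cxcr4 from bone marrow.

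The skin libraries stood apart from the SDLN libraries in depth and in content. Total counts ran from 3748669 to 11741784 in skin and from 47243498 to 116158706 in SDLN, and 2911 to 5317 genes reached 1 CPM (counts scaled to the library total, per 1e+06) in skin against 12397 to 13002 in SDLN. Foxp3, the gene behind the sort, was at 0, 28.1 and 0.111 CPM in skin against 105, 139 and 37.8 CPM in SDLN, and Cd4 was at 0, 158 and 0.221 CPM in skin. These defining markers of the sorted cell were thus near 0 in skin Treg A and C. Cd3g, part of the T cell receptor complex, was at 888, 663 and 607 CPM in skin against 1209, 1132 and 1189 CPM in SDLN, and Cd3e, Cd5 and Zap70 of the same T cell list were at 0 in skin Treg A. The summed level of the 12 Treg genes was 8499.8, 12731 and 13344 CPM in skin against 8723, 8752 and 11266 CPM in SDLN. The genes in this sum did not move alike. Capg was at 1545, 2102 and 4012 CPM in skin, while Nrp1 (88.6, 0 and 0 CPM) and Ikzf4 (151, 0.170 and 0 CPM) were at or near 0 in skin Treg B and C. Of the 12, 1 (Ctla4) was called higher in skin, 0 higher in SDLN and 11 were not called. The 23 genes of the myeloid list, which include Lyz2, Csf1r and Cd209a, summed to 34722 to 62456 CPM in skin and to 451 to 785 CPM in SDLN, with Itgam and Zbtb46 at 0 in every skin library. Most of the skin sum came from Cd74, H2-Aa, H2-Ab1 and H2-Eb1, genes of MHC class II antigen presentation. The T cell list summed to 4944, 8215 and 7849 CPM in skin and to 11581 CPM or more in SDLN, and the CD8 and cytotoxic list to 1112 CPM or more in skin and at most 295 CPM in SDLN, with Cd8a and Cd8b1 at 0 in skin. Gzmb and Nkg7 carried that skin sum, and the other 8 of the 10 genes had at most 3 counts in each skin library. No skin library held more than 226 CPM of the mast cell and granulocyte list, 117 CPM of the gamma delta T cell list, 90.6 CPM of the fibroblast list, 25.9 CPM of the endothelial list, 2.66 CPM of the B cell list or 0.0852 CPM of the keratinocyte list. In pooled RNA of this kind, fewer cells of a type and less RNA per cell cannot be told apart.

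Of the 9 receptors, Ccr2 was higher in skin Tregs, Ccr4 and Ccr9 were higher in SDLN Tregs, and the other 6 did not pass the test. The test was edgeR's quasi-likelihood test over 13572 genes at a Benjamini-Hochberg adjusted p of 0.05, and fold changes are skin over SDLN on the log2 scale. The common dispersion was 2.04, and a receptor that did not pass is not shown to be at equal levels. Over all genes tested, 1.04% were called higher in skin Tregs and 45.3% were called higher in SDLN Tregs, so the 2 receptors higher in SDLN are no larger a share than in the whole table. The median log2 fold change was 0.32 over the 9 receptors and -2.21 over all genes tested. Summed over the 9 receptors, skin Treg A, B and C held 836, 2443 and 1969 CPM, and SDLN Treg A, B and C held 863, 1094 and 892 CPM.

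**Figure D1:**
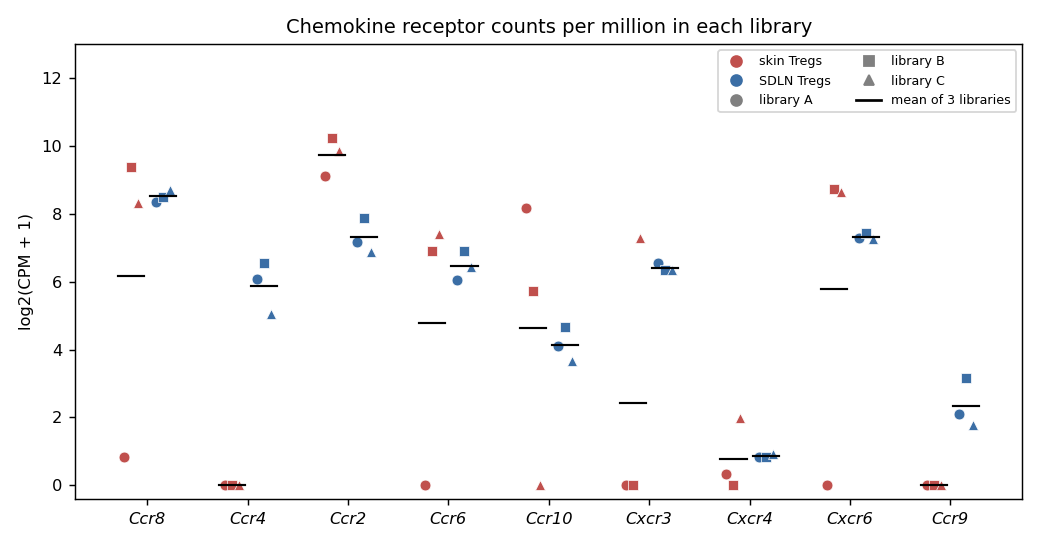
Level of each of the 9 receptors as log2(CPM + 1) in each library, with skin Tregs in red, SDLN Tregs in blue, a marker shape for each library letter and a bar at the mean of the log values. The skin libraries spread from 0 or near 0 to over 100 CPM for Ccr8, Ccr6, Ccr10, Cxcr3 and Cxcr6, all 3 are above SDLN for Ccr2, and all 3 are at 0 for Ccr4 and Ccr9.

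The receptors differed in how many skin libraries held them. With a floor of 3 counts, which is what a count of 0 allows, SDLN Treg A, B and C each held all 9 receptors. Skin Treg A held 2 (Ccr2 and Ccr10), skin Treg B held 5 (Ccr2, Ccr6, Ccr8, Ccr10 and Cxcr6) and skin Treg C held 6 (Ccr2, Ccr6, Ccr8, Cxcr3, Cxcr4 and Cxcr6). Ccr2 alone exceeded the floor in each of the 3 skin libraries, as did 12.1% of all tested genes. Ccr4 and Ccr9 did so in none, like 43.3% of all tested genes. The floor was 0.800, 0.255 and 0.332 CPM in skin and at most 0.0635 CPM in SDLN, and such floors cover counting error only.

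To show the start regions of the receptors on which the results turn, the promoters of Ccr2, Ccr4, Ccr8 and Cxcr6 are printed from RefSeq (GRCm38.p6), from 250 bases before to 50 bases after the transcript start, 5′ to 3′ on the strand of the gene. Capitals mark matches, on either strand, to the motifs of 3 families of transcription factors active in T cells. For AP-1 these are the letters TGA and TCA with any 1 base between them, for GATA factors AGATAA, and for NFAT TGGAAA. No match overlaps another. The windows are chr9:124101933-124102232 (plus strand) for Ccr2, chr9:114496495-114496794 (minus strand) for Ccr4, chr9:120091883-120092182 (plus strand) for Ccr8 and chr9:123806227-123806526 (plus strand) for Cxcr6.
Ccr2: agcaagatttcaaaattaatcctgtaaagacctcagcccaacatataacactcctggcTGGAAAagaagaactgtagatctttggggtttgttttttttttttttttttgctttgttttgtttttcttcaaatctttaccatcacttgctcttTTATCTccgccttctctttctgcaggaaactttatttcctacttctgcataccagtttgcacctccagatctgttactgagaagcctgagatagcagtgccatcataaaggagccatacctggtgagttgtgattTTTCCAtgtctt
Ccr4: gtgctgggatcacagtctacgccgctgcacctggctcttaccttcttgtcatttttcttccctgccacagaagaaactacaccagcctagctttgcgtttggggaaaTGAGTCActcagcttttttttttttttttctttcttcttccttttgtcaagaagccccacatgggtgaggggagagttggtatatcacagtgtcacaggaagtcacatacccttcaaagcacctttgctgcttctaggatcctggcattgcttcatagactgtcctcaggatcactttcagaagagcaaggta
Ccr8: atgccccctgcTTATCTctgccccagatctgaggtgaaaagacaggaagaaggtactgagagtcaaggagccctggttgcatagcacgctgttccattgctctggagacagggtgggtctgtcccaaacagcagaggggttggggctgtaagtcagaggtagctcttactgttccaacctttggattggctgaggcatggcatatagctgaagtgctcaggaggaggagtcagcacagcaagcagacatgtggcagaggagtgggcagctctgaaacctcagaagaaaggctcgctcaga
Cxcr6: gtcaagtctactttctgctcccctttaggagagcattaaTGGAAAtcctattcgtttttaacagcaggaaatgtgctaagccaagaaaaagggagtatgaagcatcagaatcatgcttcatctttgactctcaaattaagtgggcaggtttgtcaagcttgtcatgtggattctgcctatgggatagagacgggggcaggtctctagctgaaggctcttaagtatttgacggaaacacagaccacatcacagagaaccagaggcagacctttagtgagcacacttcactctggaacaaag
Ccr2 held 1 GATA and 2 NFAT matches, Ccr4 held 1 AP-1 match, Ccr8 held 1 GATA match and Cxcr6 held 1 NFAT match. Of the 8 receptors with a RefSeq promoter, 1 held AP-1, 3 held GATA, 3 held NFAT and none held the forkhead motif TGTTTAC. A receptor was counted if any of its promoters held the motif. The 8 receptors have 9 promoters, 2 of them of Ccr6, whose GATA match is in promoter 2 only. Among 32851 mouse promoters of the same length, 7.81% held AP-1, 11.2% GATA, 21.4% NFAT and 3.65% the forkhead motif. These shares are per promoter and not per gene. These matches are letters in a window and not measured binding.

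Ccr2, the receptor for Ccl2, Ccl7 and Ccl12 and best known for the exit of monocytes from bone marrow, was the receptor called higher in skin. It lies at chr9:124101950-124113557 on the plus strand (ENSMUSG00000049103). Its level was 549.5, 1194 and 926 CPM in skin and 142, 235 and 116 CPM in SDLN. Every skin library was above every SDLN library, which held for 2.39% of all tested genes. The mean was 889.8 ± 324 CPM for the skin libraries against 164 ± 62.8 CPM for SDLN (± SD, n = 3 libraries per tissue, here and below), a ratio of 5.42. In log2 terms skin exceeded SDLN by 2.53 (SE 0.613), with an edgeR adjusted p of 0.0172. Ccr2 stayed higher in every leave-one-out fit, at log2 fold changes of 2.19 to 2.81, but passed the test in 2 of these 6 fits. It missed the threshold without SDLN Treg A (edgeR adjusted p = 0.0806), without SDLN Treg C (0.0719), without skin Treg B (0.0542) and without skin Treg C (0.0599). With all libraries, Ccr2 also missed it with no filter on low counts (edgeR adjusted p = 0.112). The same held with upper-quartile scaling (log2 fold change 8.22, edgeR adjusted p = 0.0842). The myeloid list was also higher in skin, with 15 of its 20 tested genes called higher there, among them Cd68 at 316, 289 and 299 CPM in skin against 5.89, 4.63 and 9.46 CPM in SDLN. The part of such cells in the Ccr2 result was not tested. Ccr2 shares an exact stretch of 152 bases with another gene, longer than the 150-base reads, so the gene of reads within it can be uncertain.

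**Figure D2:**
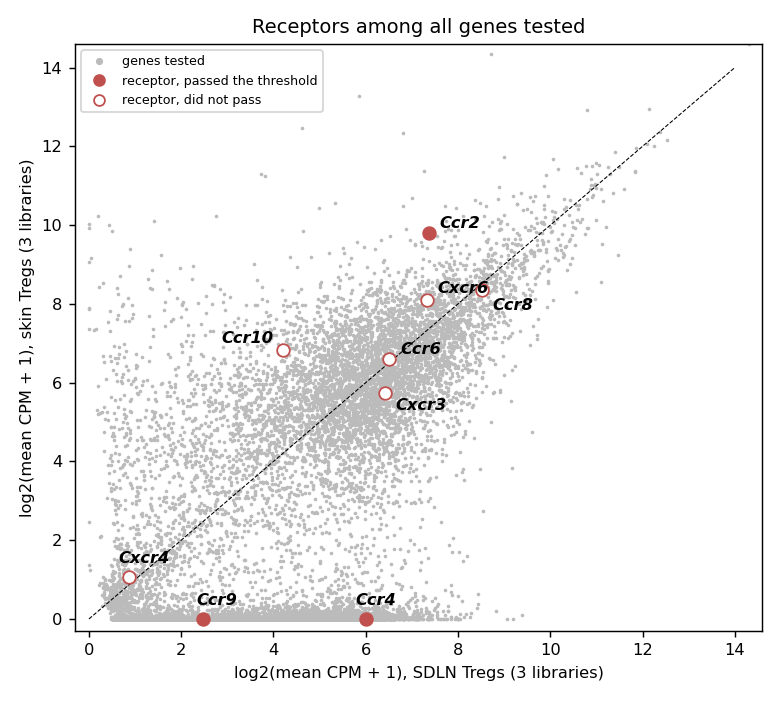
Mean level in SDLN Tregs (x axis) and in skin Tregs (y axis) of the 13572 tested genes, both as log2(mean CPM + 1), with the line of equal level dashed, the 9 receptors named and filled where they passed the test. Ccr2 lies above the line of equal level, and Ccr4 and Ccr9 lie at 0 in skin.

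Ccr8, Cxcr6 and Ccr6 shared a pattern, with levels within or above those of SDLN in skin Treg B and near or at 0 in skin Treg A. Ccr8, a receptor for Ccl1 and Ccl8 that marks tissue Tregs, lies at chr9:120092114-120094906 on the plus strand. Its level was 0.800, 659.9 and 317 CPM in skin and 322, 361 and 414 CPM in SDLN. Skin Treg A had 3 counts of Ccr8 and skin Treg B 7748, so the skin values lay on both sides of the SDLN values. The mean was 326 ± 329.6 CPM for skin and 366 ± 45.9 CPM for SDLN. On the log2 scale the change was -0.02 (SE 1.72, edgeR adjusted p = 0.997). That standard error leaves a change of several-fold in either direction undetectable with these libraries.

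Cxcr6 binds Cxcl16, a chemokine that also exists in a membrane-bound form, and is used for residence in peripheral tissue. It lies at chr9:123806475-123811760 on the plus strand. Its level was 0, 420.0 and 398 CPM in skin and 154, 173 and 151 CPM in SDLN. Skin Treg B and C were above every SDLN library and skin Treg A was below every one. The means were 273 ± 236 CPM in skin and 159 ± 11.7 CPM in SDLN, for a log2 fold change of 0.98 (SE 2.12, edgeR adjusted p = 0.868). Skin Treg A decided this result. When it was left out, Cxcr6 was called higher in skin at 1.36 on the log2 scale (SE 0.316, edgeR adjusted p = 0.0232).

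Ccr6, the receptor for Ccl20, lies at chr17:8236043-8257141 on the plus strand. Its level was 0, 118 and 169.6 CPM in skin and 65.3, 119.8 and 85.8 CPM in SDLN. The tissues overlapped, with means of 95.8 ± 86.9 CPM in skin and 90.3 ± 27.5 CPM in SDLN. Its change of 0.32 on the log2 scale (SE 2.17) had an edgeR adjusted p of 0.967. Presence in skin Treg B and C and absence from skin Treg A was common in the table. Among tested genes averaging 100 to 500 CPM in SDLN, the range of Ccr8 and Cxcr6, 30.9% were over the floor in skin Treg B and C and not in A, and among those of 30 to 100 CPM there, the range of Ccr6, the share was 17.2%.

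Ccr10, the receptor for Ccl27a and Ccl28 and known for T cells of the epidermis, had its highest level in skin Treg A. It lies at chr11:101172997-101175443 on the minus strand. Its level was 285, 51.4 and 0 CPM in skin and 16.3, 24.2 and 11.6 CPM in SDLN. Skin Treg A and B were above every SDLN library and skin Treg C was below every one. The means were 112 ± 152 CPM in skin and 17.4 ± 6.38 CPM in SDLN, a ratio of 6.45. Skin Treg A carried this difference, since without it the log2 fold change was 0.50. With all libraries the spread within skin exceeded the difference, at 2.30 on the log2 scale (SE 2.38, edgeR adjusted p = 0.614).

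Cxcr3, the receptor for the interferon-induced chemokines Cxcl9 and Cxcl10, was over the floor in 1 skin library. It lies at chrX:101731535-101734269 on the minus strand. Its level was 0, 0 and 156 CPM in skin and 93.1, 79.8 and 79.4 CPM in SDLN. Skin Treg C was above every SDLN library and skin Treg A and B were below them. The means were 51.9 ± 89.9 CPM in skin and 84.1 ± 7.80 CPM in SDLN, or -0.36 as a log2 fold change (SE 2.97, edgeR adjusted p = 0.974). Skin Treg C decided this result too, since without it Cxcr3 was at 0 in the remaining skin libraries and was called higher in SDLN (edgeR adjusted p = 0.00593).

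Cxcr4, the receptor for Cxcl12 that holds leukocytes in bone marrow, was the lowest of the receptors seen in both tissues. It lies at chr1:128588199-128592293 on the minus strand. Its counts were 1, 0 and 27 in skin and 91, 56 and 43 in SDLN. This is 0.267, 0 and 2.99 CPM in skin and 0.783, 0.769 and 0.910 CPM in SDLN. Only skin Treg C, with an exact 95% binomial interval of 1.97 to 4.35 CPM, lay above the SDLN libraries. Its log2 fold change of 0.66 (SE 1.36) did not pass (edgeR adjusted p = 0.857).

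**Figure D3:**
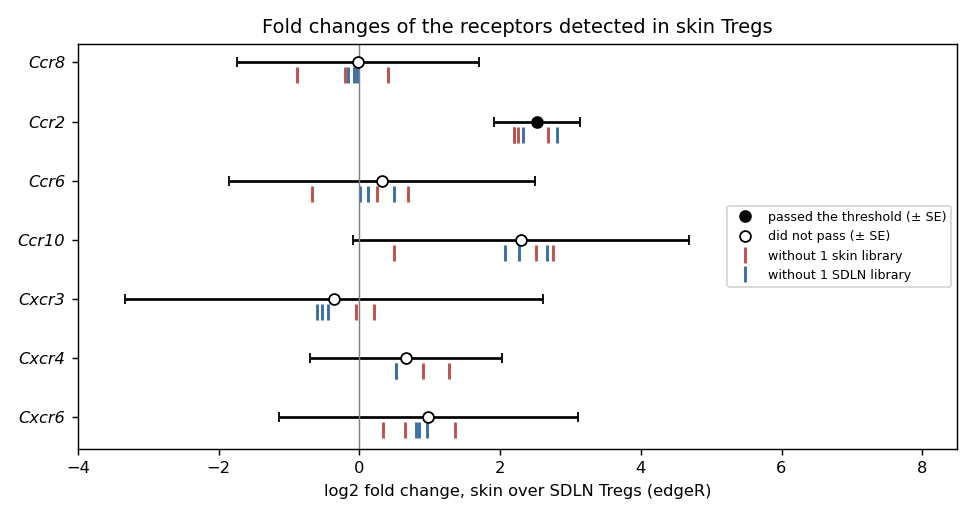
Log2 fold change (skin over SDLN) with its standard error for the 7 receptors with counts in skin, filled where the test was passed, with red ticks for fits without 1 skin library and blue ticks for fits without 1 SDLN library. Ccr4 and Ccr9 are left out because they were at 0 in every skin library, the fits of Cxcr3 and Cxcr4 without skin Treg C are not drawn, and Cxcr4 was not tested without SDLN Treg C. Ccr2 has the shortest bar.

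Ccr4 and Ccr9 had no count in any skin library. Ccr4, the receptor for Ccl17 and Ccl22 and a classical receptor of skin-homing T cells, lies at chr9:114490316-114504916 on the minus strand. It had 7676, 6775 and 1499 counts in SDLN, which is 66.1, 93.1 and 31.7 CPM, against 0 counts in each skin library. Taken at its floor, each skin library still lay below every SDLN library. The SDLN mean was 63.6 ± 30.7 CPM (SD, n = 3). Set against the mean floor of 3 counts per skin library, the skin level was at least 137.5-fold lower than this mean. Without SDLN Treg B it was at least 105.7-fold lower. The test of the counts gave an edgeR adjusted p of 0.00885. Among tested genes averaging 30 to 100 CPM in SDLN, 31.8% were called higher there and 28.7% had at most 3 counts in every skin library.

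Ccr9, the receptor for Ccl25 and known for homing to the small intestine, lies at chr9:123678439-123784330 on the plus strand. It had 379, 582 and 116 counts in SDLN, which is 3.26, 7.99 and 2.46 CPM, against 0 counts in each skin library. The groups did not overlap, as in 53.6% of all tested genes with every skin library below every SDLN library. The SDLN mean was 4.57 ± 2.99 CPM (SD, n = 3). Set against the same mean floor, the skin level was at least 9.88-fold lower than this mean, or at least 6.18-fold without SDLN Treg B. The test of the counts gave an edgeR adjusted p of 0.00651. Among tested genes averaging 3 to 10 CPM in SDLN, 67.4% were called higher there. Exons of Ccr9 overlap those of Slc6a20a and of 2 non-coding genes, so its counts are uncertain. With all libraries drawn down to the smallest total, Ccr9 had too few counts to be tested.

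The order of the receptors was read per length, as CPM per kilobase of merged exons. In SDLN Ccr8 led at 311 ± 39.1, followed by Cxcr6 at 82.4 ± 6.08 and Cxcr3 at 48.6 ± 4.50 CPM per kilobase (SD, n = 3 libraries). These leading receptors did not overlap with their next neighbour in the order, except Cxcr3 with Ccr6. Ccr6 (38.9 ± 11.9), Ccr2 (24.3 ± 9.29), Ccr4 (20.6 ± 9.94) and Ccr10 (10.1 ± 3.70 CPM per kilobase) overlapped each with the next. Cxcr4 and Ccr9 came last, each at 0.45 CPM per kilobase, and Ccr10 was above Cxcr4 in all 3 SDLN libraries. In skin the order of the means was Ccr8 (277 ± 280.5), Cxcr6 (141 ± 122), Ccr2 (132 ± 47.9), Ccr10 (65.0 ± 88.1), Ccr6 (41.3 ± 37.5) and Cxcr3 (29.99 ± 52.0 CPM per kilobase), and all neighbours overlapped. As a share of the per-length sum over the 9 receptors, Ccr8 held 56.2%, 53.5% and 64.3% in SDLN and 0.275%, 54.2% and 34.7% in skin. Ccr2 held 4.29%, 6.06% and 3.13% in SDLN and 32.9%, 17.0% and 17.6% in skin, so its share was higher in every skin library than in every SDLN library. In skin Treg A, Ccr10 held 66.8% of the sum.

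Over the 6 libraries, the levels of Ccr8, Ccr6 and Cxcr6 moved together as log2(CPM + 1). Pearson's r was 0.980 between Ccr8 and Ccr6, 0.983 between Ccr8 and Cxcr6 and 0.991 between Ccr6 and Cxcr6. Ccr2 did not follow them, with an r of -0.149 to Ccr8. These values are descriptions over 6 libraries that differ in depth and tissue, and skin Treg A held each of these receptors but Ccr2 at or near 0. The tested genes most like Ccr8 were Dera and Thumpd1, and 823 of 3608 candidate genes had an r over 0.95 to it. For Ccr6 the nearest were Rhot1 and Fbxw2 and for Cxcr6 Aftph and Atp6v0d1, with 830 and 796 candidates over 0.95. Ccr2 had 19 such candidates, led by Rbm26 and Magt1 (r = 0.990 for both), and Ccr10 had 124, led by Agfg2 and Lnpk.

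On the genome, 5 of the 9 receptors lie on chromosome 9. Ccr9, Cxcr6 and Ccr2 stand in a cluster of chemokine receptor genes there that also holds Xcr1, Ccr1, Ccr1l1 and Ccr3. Neighbours in this cluster differed in direction. Ccr2 was called higher in skin, Ccr9, Ccr1, Ccr3 and Xcr1 were called higher in SDLN, and Cxcr6 did not pass the test. Calls higher in SDLN made up 45.3% of all tested genes and calls higher in skin 1.04%.

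The other chemokine receptors, a list of 15, were tested for 8 genes. None was called higher in skin and 4 were called higher in SDLN, against 1.04% and 45.3% of all genes tested. The median log2 fold change was -5.19 among those tested and -2.21 over all genes tested. The other 7 were too low in both tissues to be tested. The genes called were Cxcr5, which guides cells to B cell follicles (edgeR adjusted p = 0.00507), Ccr3 (0.00322), Ccr1 (0.00379) and Xcr1 (0.0117). Their SDLN means were 35.7 ± 9.24 CPM for Cxcr5, 21.6 ± 6.18 for Ccr3, 3.83 ± 1.12 for Ccr1 and 2.45 ± 1.38 for Xcr1. Exons of Cxcr5 overlap Bcl9l on the opposite strand, and strand use in counting is not known, so its counts are uncertain. Ccr7 and Ccrl2, which did not pass, were picked for description after their values were seen. Ccr7, the receptor for entry to lymph nodes, was at 229, 204 and 0.111 CPM in skin and at 232, 209.6 and 229.6 CPM in SDLN. Skin Treg A and B thus stood at the SDLN level and skin Treg C near 0. The atypical receptor Ccrl2 was at 425, 0 and 53.6 CPM in skin and 24.1, 34.5 and 24.9 CPM in SDLN. Both had 1 skin library at or near 0 and another at or above SDLN.

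**Figure D4:**
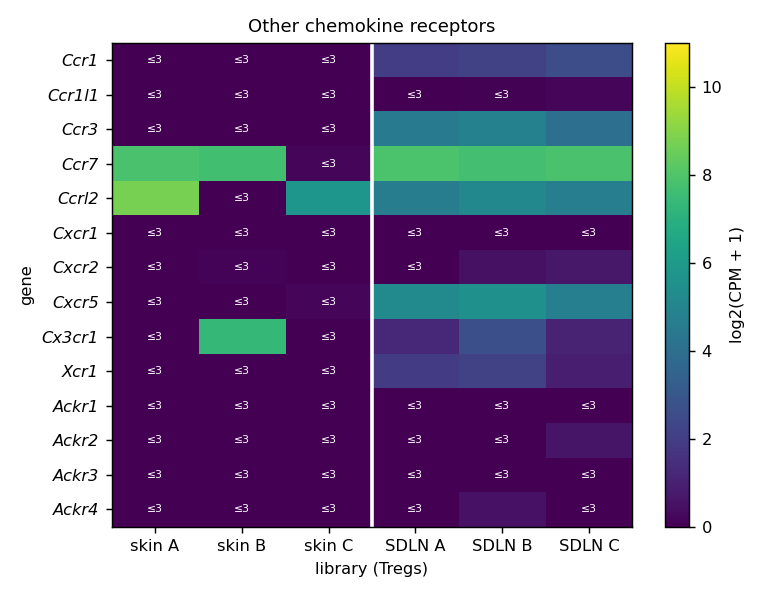
Level of 14 of the 15 other chemokine receptors (rows) in each library (columns) as the colour of log2(CPM + 1), with ≤3 written in cells of at most 3 counts. Ccr1, Ccr3, Cxcr5 and Xcr1 are at the floor in every skin library, and Ccr7 and Ccrl2 are each at the floor in 1 skin library.

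The summed level of ligands of the 9 receptors was higher in every skin library than in every SDLN library. The 16 ligand genes summed to 1053, 469 and 777 CPM in skin and to 14.51, 20.6 and 15.96 CPM in SDLN. Of the 7 tested, 1 was called higher in skin and 3 higher in SDLN, against 1.04% and 45.3% of all genes tested. Ccl8, a ligand of Ccr8, was at 196, 43.0 and 492 CPM in skin and 0.258, 0.797 and 0.910 CPM in SDLN. Every skin library was above every SDLN library, and the log2 fold change was 8.66 (SE 1.78, edgeR adjusted p = 0.00939). Ccl7, a ligand of Ccr2, was at 411, 70.2 and 0.443 CPM in skin and at 0, 0.220 and 0 CPM in SDLN, with an edgeR adjusted p of 0.0772. Ccl22, a ligand of Ccr4, was at 436, 132 and 0 CPM in skin and 0, 1.11 and 1.04 CPM in SDLN (edgeR adjusted p = 0.187). Ccl2 was too sparse to be tested and stood at 0, 223 and 189 CPM in skin and at 0.310, 0.165 and 0 CPM in SDLN. The myeloid list summed to 62456, 38911 and 34722 CPM in skin and was likewise above SDLN in every skin library. Within skin its order of libraries differed from that of the ligand sum. The part of the myeloid list in these ligand levels was not tested. Ccl22 and Ccl2 were named after their values were seen. The genes called higher in SDLN were Ccl27a (edgeR adjusted p = 0.00992), Cxcl10 (0.0238) and Ccl25 (0.0074), a ligand each of Ccr10, Cxcr3 and Ccr9, and all were at 0 in every skin library. Their exons overlap Il11ra1, Art3 and Elavl1 in turn on the opposite strand, with the same uncertainty. Cxcl10 was not tested without SDLN Treg A or without SDLN Treg B, so it was not called in those fits. Ccl20 and Cxcl12 were at 0 in all 6 libraries.

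**Figure D5:**
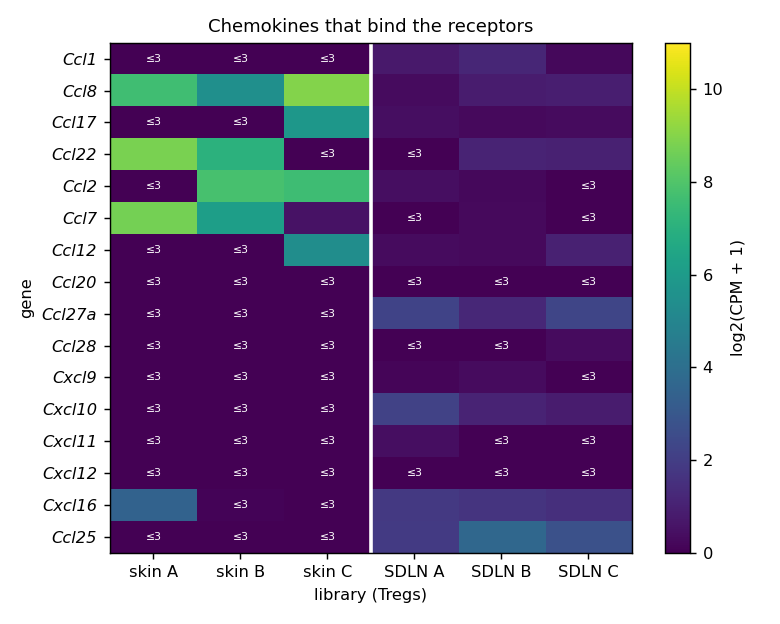
Level of the ligand genes (rows) in each library (columns) as the colour of log2(CPM + 1), with ≤3 written in cells of at most 3 counts. Ccl8 is at 43.0 CPM or more in every skin library and under 1 CPM in every SDLN library, while Ccl2, Ccl7 and Ccl22 are each at 70.2 CPM or more in 2 of the 3 skin libraries.

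Of the genes that carry the receptor signal, most were present in both tissues. The 20 signalling genes summed to 7557, 7951 and 8406 CPM in skin and to 7333, 6832 and 7227 CPM in SDLN, and 12 of them exceeded the floor in each skin library. Beside Rgs1 and Rac2 these were the G protein subunits Gnai2, Gnai3 and Gnb1, the Rac pathway genes Dock2, Elmo1, Rac1, Cdc42 and Rhoa, the adaptor Fyb and the regulator Rgs2, none of which passed the test (edgeR adjusted p of 0.277 for Rgs2 and higher for the rest). Of the 20 tested, 1 was called higher in skin, 3 were called higher in SDLN and 16 were not called. The shares over all genes tested were 1.04% higher in skin and 45.3% higher in SDLN. The median log2 fold change was 0.25 for the signalling genes and -2.21 over all genes tested. Rgs1, which shortens signals of G protein-coupled receptors, was at 1016, 439 and 1421 CPM in skin and 271, 229 and 158 CPM in SDLN. No skin library overlapped with SDLN, and the log2 fold change was 2.18 (SE 0.636, edgeR adjusted p = 0.0342). Rgs1 missed the threshold without any 1 of the SDLN libraries and without skin Treg C, with edgeR adjusted p-values of 0.0831 to 0.118 in those fits, and its log2 fold change fell to 1.31 without skin Treg C. With no filter on low counts Rgs1 had an edgeR adjusted p of 0.175, with at least 10 counts in at least 2 libraries 0.0501 and with upper-quartile scaling 0.0925. Arrb1, an arrestin that ends receptor signals, was at the floor in skin (edgeR adjusted p = 0.0033), and Pik3r5, a subunit of the G protein-coupled phosphoinositide kinase, had a log2 fold change of -5.57 (edgeR adjusted p = 0.0204). Pik3r5 missed the threshold without any 1 of the SDLN libraries or without skin Treg A (edgeR adjusted p = 0.0526 to 0.0594), and with upper-quartile scaling its log2 fold change was -0.38 (0.936). Rac2, a small GTPase of leukocyte movement, was at 1294, 1011 and 612 CPM in skin and 1934, 1763 and 1618 CPM in SDLN, with no overlap. Its log2 fold change was -0.96 (SE 0.244, edgeR adjusted p = 0.0191), and turned to 0.13 when libraries were scaled to the T cell list and to 5.98 with upper-quartile scaling. Rac2 also missed the threshold without SDLN Treg A (edgeR adjusted p = 0.126) and without SDLN Treg B (0.0854). It did so too with scaling by library size only (edgeR adjusted p = 0.0875) and with no filter on low counts (0.321), and with voom (limma adjusted p = 0.197).

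Among 14 other homing receptors, none was called higher in skin and 3 were called higher in SDLN. The shares over all genes tested were 1.04% and 45.3%. The median log2 fold change was -0.27 for these receptors and -2.21 over all genes tested. Gpr15, a receptor known from the gut and skin, was at 0 in each skin library and at 18.5, 18.4 and 20.6 CPM in SDLN (edgeR adjusted p = 0.00322), and its exons overlap Cpox on the opposite strand. Itgal, a chain of the integrin LFA-1, was at 137, 15.4 and 101 CPM in skin and 657, 754 and 395 CPM in SDLN. No skin library reached the SDLN levels, and the log2 fold change of -2.90 (SE 0.892, edgeR adjusted p = 0.0412) missed the threshold without skin Treg A (0.0569) and without any 1 of the SDLN libraries (0.0674 to 0.144), and turned to 4.31 with upper-quartile scaling. Itgal also missed it when scaled to the T cell list (log2 fold change -1.78, edgeR adjusted p = 0.280), with DESeq2 size factors (0.0521), with library size only (0.0505), with no filter (0.120) and with voom (limma adjusted p = 0.0968). The other homing receptors above the floor in each skin library, S1pr4, Itgae, Itgb7, Itgb1 and Selplg, did not pass the test. S1pr1, the receptor for exit from lymph nodes, was at 18.9, 268 and 0 CPM in skin and 401, 496 and 334 CPM in SDLN, and did not pass the test (log2 fold change -2.06, edgeR adjusted p = 0.646). S1pr1 was named after its values were seen.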

How the data were processed

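Bulk RNA-seq of sorted Tregs from skin and SDLN was used (3 libraries each). The authors trimmed 150 bp paired-end reads with Trimmomatic 0.36, mapped them to GRCm38 with STAR 2.5.2b and deposited the raw counts of reads uniquely assigned to exons of each gene by featureCounts (Subread 1.5.2). Which annotation they used, whether reads were counted by strand and how duplicates were treated are not given in the sources used here. Table columns carry letters and the labels carry numbers, so columns were matched to tissues only and the main fit has no block. The tissue field of the lymph node samples also reads skin, and tissue was therefore taken from the sample titles. Nothing says that libraries were independent beyond the pooling of separate replicates, so p-values measure the spread between these libraries.

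Identifiers were matched to GENCODE M21, which named 49056 of 49315 genes. Counts were tested with edgeR 4.0.16 (R 4.3.3) by robust quasi-likelihood with filterByExpr, TMM and tissue as the only term, which kept 13572 genes. P-values were adjusted by the Benjamini-Hochberg method over all of these at a threshold of 0.05. The SE was taken from the fold change and its F statistic. The study's methods name no test for these libraries, and its own table of differences between them was not used. Named genes were the 9 receptors, list genes called at 1 log2 unit or more in either direction or over 3 counts in every skin library, cell type markers set beside a receptor, and the 2 genes most like each receptor over 3 counts in at least 2 skin libraries, by Pearson's r of log2(CPM + 1) among tested genes of at least 10 CPM. Rac2, called at a smaller fold change, met the second condition. The receptors and lists were chosen with earlier results of these data known. Alternatives covered scaling, the filter, DESeq2 1.42.0, limma 3.58.1, the threshold, depth and each library left out, and a block by column letter was added after seeing the data. Promoters and their coordinates are RefSeq's on GRCm38.p6. Ccr10 had no promoter entry. Some genes of the lists are counted in the totals and are not reported here by name.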

Additional observations from a re-analysis of the deposited data

How the results depend on the processing

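Ccr4 was called higher in SDLN under all 17 alternatives and Ccr9 under the 16 that tested it. Ccr2 was higher in skin under all 17, at adjusted p of 1.36e-05 to 0.112, and was called in 11. The number of receptors called higher in skin (1) was 0 with upper-quartile scaling, with no filter and at a threshold of 0.01, and 0 to 2 with a library left out (2 without skin Treg A, Ccr2 and Cxcr6). The number called higher in SDLN (2) was 1 with libraries drawn down to the smallest total, since Ccr9 was then not tested. Drawing down also gave 2 other chemokine receptors and 0 ligands called higher in SDLN (4 and 3). Ligands called higher in skin (1) were 3 with upper-quartile scaling and with DESeq2, and 1 to 2 with a library left out (2 without skin Treg A or skin Treg C). Signalling genes called higher in skin (1) were 0 with no filter, with at least 10 counts in at least 2 libraries and at 0.01, and 0 to 1 with a library left out. Signalling genes called higher in SDLN (3) were 1 with upper-quartile scaling and at 0.01, and 1 to 5 with a library left out (1 without SDLN Treg A or SDLN Treg B, 5 without skin Treg C). Other homing receptors called higher in SDLN (3) were 2 to 5 (5 without skin Treg B).

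None of the 3 called receptors changed direction under these alternatives, while the called list genes Rac2 and Itgal did, as given above. The log2 fold change of Ccr8 (-0.02) was 0.56 with upper-quartile scaling, 0.48 when scaled to the T cell list and -0.89 to 0.40 with a library left out. Voom gave -2.08 for Ccr8, -2.26 for Ccr6, -2.59 for Ccr10, -4.37 for Cxcr3, -0.38 for Cxcr4 and -1.93 for Cxcr6. Cxcr3 was 0.53 with upper-quartile scaling. With a library left out, Ccr6 ranged from -0.68 to 0.68, Ccr10 from 0.50 to 2.76, Cxcr3 from -15.06 to 0.21 and Cxcr4 from -3.63 to 1.28. In upper-quartile scaling the 75th percentile of skin Treg A was 1 count, which gave it a factor of 0.0114 against 1.33 to 3.09 elsewhere. The cause of the other changes was not tested. Over all genes, calls higher in skin numbered 141, 404 with DESeq2, 259 when scaled to the T cell list, 77 with no filter, 61 at 0.01 and 71 to 324 with a library left out. The median log2 fold change of all genes (-2.21) was -1.60 when scaled to the T cell list, -1.24 with upper-quartile scaling and -4.68 with voom. A block by the replicate numbers of the labels was not run, since the table carries letters only. A replicate block by the letter that a skin and an SDLN column share, chosen after seeing the data, called 1 receptor higher in skin and 2 in SDLN, 0 ligands and 0 signalling genes higher in skin, and 61 genes in all higher in skin. It gave -0.94 for Ccr6, -1.34 for Cxcr4 and -0.038 for Cxcr6. The deviations of same-letter libraries from their tissue means had correlations over genes of 0.0460, -0.0100 and 0.0914. Those of differing letters ran from -0.0824 to 0.0513. With 3 libraries per tissue these values cannot decide whether the letters mark pairs. The letters were not taken as pairs because the sources do not say what they mark. With libraries drawn down to the smallest total, SDLN Treg A, B and C held 9, 8 and 9 receptors over the floor and skin Treg A, B and C held 2, 5 and 6.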
